A study of Mus musculus with 2 samples.

Results

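The genes described here are Igf1, which encodes insulin-like growth factor 1, and 5 genes of IGF binding proteins, Igfbp3, Igfbp4, Igfbp5, Igfbp6 and Igfbp7. These 6 genes were chosen by name as a family, out of 15247 genes in the table, and all 6 had a row. They were measured in heart cells of aged C57BL/6 mice, 20 to 22 months old, of the p16-FDR strain. This strain carries a FLP recombinase and a diphtheria toxin receptor fused to the red reporter mCherry. Cells positive for mCherry were sorted by flow cytometry and profiled by droplet sequencing of the 3′ ends of transcripts, in which each RNA molecule is counted once by its unique molecular identifier (UMI). There were 2 samples in 1 group, with no mCherry-negative, young or ablated group among them, so every comparison below is between cells of the same libraries. The labels give neither sex nor whether the samples came from separate animals. The p-values therefore measure how differences between cells varied from library to library, a spread that may be technical. That spread was taken largely from other genes of like level, and only in part from the gene itself.

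IGF1 acts through the IGF1 receptor, a tyrosine kinase that feeds the PI3K and AKT pathway, and is made in the liver under growth hormone as well as locally in many tissues. The binding proteins are secreted, hold IGF1 or IGF2 in the extracellular space, and both prolong and restrain their action until proteases cut them. IGFBP6 prefers IGF2, IGFBP5 and IGFBP3 also bind matrix, and IGFBP7 is a related protein with low affinity for IGFs. In the heart, fibroblasts and tissue macrophages are known local sources of IGF1, and several binding proteins are known among the factors that senescent cells secrete.

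Cells were placed in a gate by detection of marker genes that do not include the 6 genes. A fibroblast had a UMI of at least 4 of 8 fibroblast genes (such as Pdgfra and Dcn) and of at most 2 of 8 macrophage genes (such as C1qa and Csf1r), and a macrophage the reverse. Library Heart1 held 266 cells, of which 205 were fibroblasts and 37 macrophages. Library Heart2 held 1160 cells, of which 939 were fibroblasts and 208 macrophages. The median depth was 11871 and 8770 UMIs per fibroblast and 8133 and 9568.5 per macrophage, in Heart1 and Heart2. The panels that set the gates are given as a description: the summed fibroblast panel stood at 27711 and 29158 CPM in fibroblasts (CPM, UMIs per 1000000 UMIs) and at 17.3 and 41.4 CPM in macrophages. The summed macrophage panel stood at 21150 and 24098 CPM in macrophages and at 4.43 and 8.47 CPM in fibroblasts.

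The 6 genes lie at 6 separate places of the mouse genome (GRCm38, GENCODE annotation). Igf1 is on chromosome 10, 87858265 to 87937042, plus strand. Igfbp3 is on chromosome 11, 7206086 to 7213923, minus strand, and Igfbp4 on the same chromosome at 99041244 to 99054392, plus strand. Igfbp5 is on chromosome 1, 72857932 to 72874884, minus strand. Igfbp6 is on chromosome 15, 102144362 to 102149511, plus strand. Igfbp7 is on chromosome 5, 77349240 to 77408041, minus strand. The neighbouring family members Igfbp1, 3540 bp from Igfbp3, and Igfbp2, 5458 bp from Igfbp5, had no row in the table. Igf1 overlaps the antisense gene Igf1os, and Igfbp7 overlaps Polr2b and an antisense gene on the other strand. Whether counting used the strand is not given in the sources used here, so it is not known whether reads of such pairs were told apart. Igf1os itself had at most 2 UMIs in either gate of either library.

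The 100 bases before the RefSeq start (GRCm38.p6) are shown for 4 of the genes that were higher in fibroblasts than in macrophages (below). They set apart windows with and without a match to the string TATANA. Capitals mark the stretch that matches TATANA on either strand (overlapping matches are joined), and each line runs 5′ to 3′ on the strand of its gene, at chr11:7213924-7214023 (minus), chr11:99041144-99041243 (plus), chr15:102144086-102144185 (plus) and chr5:77408046-77408145 (minus).
Igfbp3: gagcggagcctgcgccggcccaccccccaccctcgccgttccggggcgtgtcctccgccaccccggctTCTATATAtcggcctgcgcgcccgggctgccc
Igfbp4: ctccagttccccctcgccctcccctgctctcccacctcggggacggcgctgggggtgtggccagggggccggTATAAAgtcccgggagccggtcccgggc
Igfbp6: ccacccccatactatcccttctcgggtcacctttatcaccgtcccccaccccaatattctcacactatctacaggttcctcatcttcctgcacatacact
Igfbp7: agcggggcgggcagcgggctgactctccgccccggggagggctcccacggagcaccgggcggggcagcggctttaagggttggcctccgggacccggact

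TATANA occurred in the windows of Igfbp3 and Igfbp4, where the stretch in capitals began 32 and 28 bases before the start. The windows of the other 4 genes had no match to TATANA. Other TATA-like strings were not sought. Of 32851 promoters in the same RefSeq table, 9.48% held the motif in such a window. The G and C content was 77% for Igfbp3, 75% for Igfbp4 and 77% for Igfbp7 but 51% for Igfbp6, beside a median of 55% over all promoters. The window of Igf1 lies inside the annotated gene and that of Igfbp5 runs into it, and neither is shown. The Igfbp6 window ends at 102144185, short of the annotated gene start at 102144362. Its letters thus lie before a different start than that of the annotated gene. These matches describe letters and say nothing of which factor binds.

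Fibroblasts and macrophages were compared first, which asks in which sorted cells each gene was used. The 5 binding protein genes were higher in fibroblasts, while the difference of Igf1 did not pass the test. Of the 6 genes, 5 were called higher in fibroblasts and 0 lower. Of all 8792 genes tested, 26.4% were called higher in fibroblasts and 17.5% lower, with 4348 at an unadjusted p under 0.05. By size alone, 5 of the 6 were at least 2-fold higher in both libraries, against 14.9% of all genes. The test had 1 residual degree of freedom, and 31.7 further ones came from the spread of other genes. Each SE and p-value below thus says little of how well the 2 libraries agreed for that gene. For Igfbp7, the log2 differences were 10.4 in Heart1 and 8.98 in Heart2, beside an SE of 0.24.

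Igf1 stood at 246 CPM in fibroblasts and 300 CPM in macrophages of Heart1, and at 272 and 339 CPM in Heart2. The fibroblast level was 0.819 times that of macrophages in Heart1 (95% interval 0.666 to 1.02, counting error only) and 0.804 times in Heart2 (0.738 to 0.876). Macrophages were by value above fibroblasts in both libraries, but the log2 difference of -0.30 ± 0.19 (SE, 2 libraries) did not pass the test (limma, Benjamini-Hochberg adjusted p = 0.210). Igf1 was the ligand measured here, since Igf2 had no row.

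Igfbp7 was the most abundant of the 6 in UMIs, a scale that counts 3′ ends and so holds no length term. It stood at 6704 and 4248 CPM in fibroblasts, with 205 of 205 and 938 of 939 cells holding a UMI. In macrophages it had 0 UMIs in Heart1 and 7 in Heart2, 3.41 CPM. Fibroblasts were at least 776-fold higher in Heart1, with the macrophage floor set at 3 UMIs per library, and 1246-fold higher in Heart2 (interval 605 to 3099). The fitted log2 difference was 9.69 ± 0.24 (limma adjusted p = 1.29e-26), which for a gene at 0 depends on the added constant of 5 CPM.

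Igfbp6 followed the same pattern. Its fibroblast level was 1070 CPM in Heart1 and 673 CPM in Heart2, against 0 UMIs and 5 UMIs (2.44 CPM) in macrophages. That is at least 124-fold higher in Heart1 and 276-fold in Heart2 (interval 118 to 852). The log2 difference was 7.13 ± 0.27 (limma adjusted p = 1.14e-21).

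Igfbp5 stood at 220 and 203 CPM in fibroblasts, and macrophages of the libraries held 0 UMIs and 1 UMI. The fibroblast level was at least 25.5-fold higher in Heart1, and 417-fold higher in Heart2 with a wide interval (74.8 to 16490). Igfbp3, a carrier of IGF1 in blood, was the lowest of the 6, at 36.2 and 65.6 CPM in fibroblasts and with 1 UMI and 0 UMIs in macrophages. Fibroblasts were 12.6-fold higher in Heart1 (2.20 to 501) and at least 44.9-fold higher in Heart2. The fitted log2 differences were 5.37 ± 0.28 for Igfbp5 (limma adjusted p = 1.17e-17) and 3.10 ± 0.37 for Igfbp3 (limma adjusted p = 1.40e-08).

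Igfbp4, a binding protein known for restraining IGF action, was the one binding protein with a clear macrophage level. It stood at 1089 and 1484 CPM in fibroblasts and at 173 and 426 CPM in macrophages. Fibroblasts were 6.30-fold higher in Heart1 (4.88 to 8.28) and 3.48-fold in Heart2 (3.25 to 3.73), a log2 difference of 2.20 ± 0.18 (limma adjusted p = 1.13e-12). The macrophage level differed 2.47-fold between the libraries. Macrophages held 60 and 875 UMIs of Igfbp4 beside 0 and 7 of Igfbp7, and the part of free RNA in the Igfbp4 level was not tested.

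**Figure D1:**
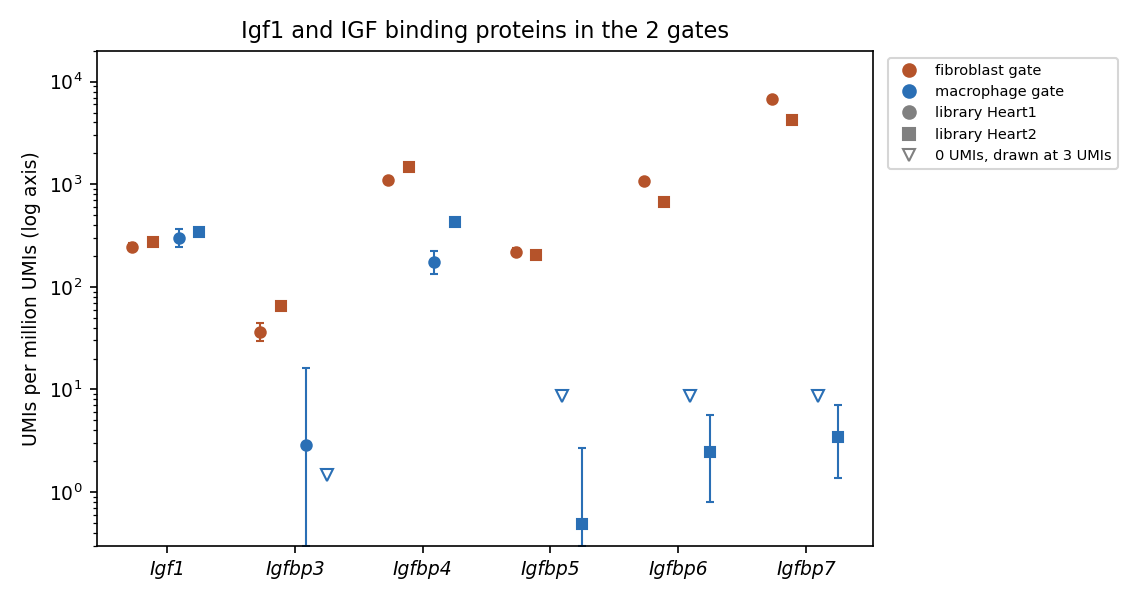
Level of each gene in CPM (log axis) in the fibroblast gate and the macrophage gate, by library; bars are exact Poisson 95% intervals and cover counting error only, bars that reach the axis are cut there, and open triangles mark 0 UMIs, drawn at the level of 3 UMIs. The 4 points of Igf1 lie between 246 and 339, while Igfbp5, Igfbp6 and Igfbp7 are at or near 0 in macrophages.

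Shares of cells were also compared. After each cell was thinned to 3000 UMIs, Igf1 was detected in 41.0% and 42.5% of fibroblasts and in 40.5% and 51.4% of macrophages (Heart1 and Heart2). Without thinning these shares were 75.6% and 67.4%, and 62.2% and 80.8%, so the share in Heart1 was by value higher in fibroblasts, opposite to the level. For Igfbp4 the thinned shares were 86.8% and 92.9% of fibroblasts and 32.4% and 55.8% of macrophages. Igfbp7 was in 100% and 99.6% of thinned fibroblasts, and in 0 of 37 and 1 of 208 macrophages. The macrophage genes Lyz2 and Cd74, which fibroblasts should lack, had a UMI in 3.62% to 7.80% of unthinned fibroblasts. Igfbp3, in 7.80% and 10.8% of unthinned fibroblasts, was at and just above that range by share. In macrophages, however, Lyz2 stood at 25558 and 23276 CPM and Cd74 at 13760 and 18024 CPM, whereas Igfbp3 stood at 36.2 and 65.6 CPM in fibroblasts. Macrophages held 1 UMI and 0 UMIs of Igfbp3, and its fibroblast UMIs were piled up in few cells. The part of background in its share was not tested.

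Most fibroblasts used several binding protein genes at once. At 3000 UMIs per cell, 57.6% of Heart1 and 57.9% of Heart2 fibroblasts had a UMI of exactly 3 of the 5, and 0 cells had none. All 5 were seen in 1 cell of Heart1 and 2 cells of Heart2. Of macrophages, 67.6% and 43.8% had none of the 5, and only 3 cells, all in Heart2, had 2 or more. Igf1 was detected in 44.0% and 42.9% of the macrophages without any binding protein.

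The wider IGF system was described by a list of 41 genes: ligands, receptors, binding proteins, their proteases, growth hormone input and signalling. Of these, 36 had a row and 32 passed the filter on low values (a mean of 10 CPM). In fibroblasts 17 of 32 were called higher and 2 lower, where 26.4% and 17.5% of all genes tested were. The median log2 difference was 0.81 over the list and 0.16 over all genes. Beyond the 6 genes, 12 of 26 were higher. The largest difference was that of Htra3, a serine protease that can cut binding proteins, at 982 and 1668 CPM in fibroblasts and 8.64 and 5.36 CPM in macrophages (log2 difference 6.76 ± 0.24). Its relative Htra1 differed by 5.05 ± 0.33, and Adamts1, a secreted metalloprotease, by 3.70 ± 0.35.

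Of the 5 genes of growth hormone input, Ghr and Socs2 were called higher in fibroblasts, and Jak2, Stat5a and Stat5b did not pass (limma adjusted p = 0.460, 0.913 and 0.374). Ghr, the growth hormone receptor, stood at 162 and 149 CPM in fibroblasts and had 1 UMI and 0 UMIs in macrophages. Socs2, a growth hormone target that restrains the receptor, stood at 215 and 186 CPM against 2.88 and 2.92 CPM (log2 difference 4.70 ± 0.27). Among the signalling genes, Grb10, an adaptor that restrains the insulin and IGF1 receptors, was at 41.4 and 67.9 CPM with 0 UMIs in macrophages of either library. The limma adjusted p of Htra3, Htra1, Adamts1, Ghr, Socs2 and Grb10 lay at or under 6.84e-10.

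Of the receptors, singled out for their role and not for size, Igf1r stood at 53.5 and 86.5 CPM in fibroblasts and 31.7 and 24.8 CPM in macrophages (log2 difference 1.15 ± 0.27, limma adjusted p = 0.000715). Igf2r, which clears IGF2, was higher in fibroblasts by 3.19 ± 0.37 on the log2 scale (limma adjusted p = 8.18e-09). It stood at 79.4 against 20.2 CPM (7 UMIs) in Heart1 and 131 against 0.487 CPM (1 UMI) in Heart2, log2 differences of 1.75 and 4.63. The insulin receptor Insr stood at 17.4 and 24.9 CPM in fibroblasts and 23.0 and 29.2 CPM in macrophages and did not pass the test (limma adjusted p = 0.518). The 2 list genes that were lower in fibroblasts, named after their values were seen, were Ctsd, a lysosomal protease, and the kinase gene Akt1. Ctsd stood at 340 and 313 CPM in fibroblasts and at 4068 and 1070 CPM in macrophages (log2 difference -2.66 ± 0.22), and Akt1 differed by -0.62 ± 0.22 (limma adjusted p = 0.0218).

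Within fibroblasts the genes differed in how evenly cells used them. The 10% of cells with the highest counts held 27.5% and 26.5% of Igfbp7 UMIs and 28.5% and 26.5% of Igfbp4 UMIs. For Igf1 it held 42.6% and 42.8%, and for Igfbp6 45.1% and 41.1%. For Igfbp5 it held 78.5% in Heart1 and 94.8% in Heart2, and for Igfbp3 100% and 98.7%. Igfbp7 and Igfbp4 were thus spread over nearly all fibroblasts, whereas the UMIs of Igfbp3 and Igfbp5 came from a small share of them in both libraries. These shares were taken without thinning, and they rise by sampling alone where a gene has few UMIs. Igfbp3 had 98 and 550 UMIs beside 18158 and 35595 of Igfbp7, so its share cannot be set against that of Igfbp7. Igfbp5 and Igf1 were closer in number, at 596 and 1703 beside 665 and 2280 UMIs.

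**Figure D2:**
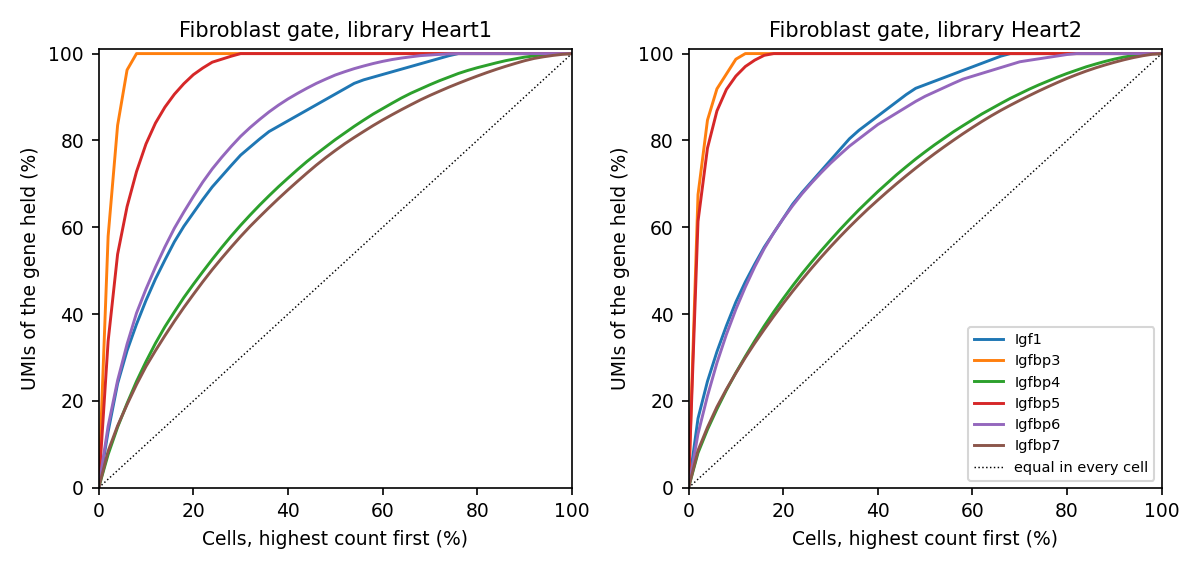
Share of the UMIs of each gene (y axis, %) held by the given share of fibroblasts (x axis, %), with cells ordered from the highest count down, in each library; the dotted line is an equal count in every cell. Igfbp3 and Igfbp5 climb steepest, with 100% and 78.5% of UMIs in the top 10% of Heart1 cells, and Igfbp7 and Igfbp4 lie closest to the dotted line.

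At 1000 CPM or more of Igfbp5 there were 15 of 205 fibroblasts in Heart1 and 48 of 939 in Heart2. In the highest such cell, in Heart2, Igfbp5 made up 2.95% of all its UMIs. These cells were picked by Igfbp5 itself, so their other genes are given as a description. Genes of mural cells (pericytes and smooth muscle) were higher in them: the summed panel stood at 261 CPM against 99.1 CPM in the other fibroblasts of Heart1, and at 112 against 56.0 CPM in Heart2. At least 2 of the 6 mural genes had a UMI in 4 of the 15 and 10 of the 48 cells, against 29 of 190 and 56 of 891 others. The summed endothelial panel was also higher, at 34.0 against 5.92 CPM and 10.2 against 5.76 CPM, but 0 cells had 2 or more of its genes. Mesothelial and cardiomyocyte panels went opposite ways in the libraries, and the Schwann panel was at 0 in the Igfbp5 cells. The part of mural or endothelial RNA in the Igfbp5 level was not tested. Igfbp3 reached 1000 CPM in 1 and 16 cells. Of those 16, 6 had Pi16 after thinning, against 747 of 923 other fibroblasts of Heart2. Without the cell that held most of its UMIs, Igfbp3 stood at 28.2 and 58.1 CPM and Igfbp5 at 195 and 182 CPM.

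Fibroblasts were then split by Wif1, Thbs4 and Pi16, each detected after thinning to 3000 UMIs. Wif1 encodes a secreted Wnt inhibitor, Thbs4 a matricellular protein, and Pi16 is a known marker of adventitial-type fibroblasts. Wif1 was detected in 30 of 205 Heart1 and 8 of 939 Heart2 fibroblasts, Thbs4 in 21 and 9, and Pi16 in 167 and 753. Among other markers named for these subsets, Dkk3 was at 1477 and 968 CPM with Wif1 against 389 and 66.4 CPM without, and Cilp at 3116 and 2449 CPM with Thbs4 against 496 and 112 CPM without. Coch, named with Wif1, was at 543 CPM in the Wif1 cells of Heart1 and at 0 in those of Heart2. With Pi16, Cd248 was at 104 and 135 CPM against 33.3 and 25.9 CPM without, but Dpp4 was at 3.19 against 21.5 CPM in Heart1 and 23.1 against 3.15 CPM in Heart2. Of cells without Pi16 at this depth, 47.4% and 54.8% did hold a Pi16 UMI at full depth, so the split by Pi16 is one of level. The planned test needed 20 cells with exactly 1 of the 3 genes in each library. Pi16 reached it, and Wif1 (14 and 4 cells) and Thbs4 (3 and 1 cells) are given as values with counting intervals and no test.

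In the split by Wif1, Igfbp6 had the largest ratio of the 6 genes in both libraries. In Wif1 cells it stood at 29.1 CPM in Heart1 and 21.5 CPM in Heart2, against 1239 and 681 CPM in fibroblasts without Wif1. Wif1 cells were thus 42.6-fold and 31.6-fold lower (ratios 0.0235, interval 0.0117 to 0.0421, and 0.0316, interval 0.00383 to 0.114). These values rest on 11 UMIs in 5 of 30 cells and 2 UMIs in 2 of 8 cells. Against fibroblasts with none of the 3 genes, the 14 cells with Wif1 alone in Heart1 held 16.8 CPM (3 UMIs) beside 450 CPM, a ratio of 0.0373 (0.00757 to 0.112), and the 4 such cells of Heart2 held 0 UMIs. Igfbp6 was the 1 gene of the 6 that was at least 2-fold lower there in both libraries, as were 5.78% of all genes.

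In Thbs4 cells Igfbp6 was high. It stood at 2273 and 1257 CPM with Thbs4 against 862 and 665 CPM without, 2.64-fold (2.43 to 2.85) and 1.89-fold (1.60 to 2.22) higher. Igfbp7 went the same way, at 8745 and 10759 CPM with Thbs4 against 6351 and 4151 CPM without. Igfbp4 went the other way, at 639 and 600 CPM against 1167 and 1497 CPM, 1.83-fold and 2.49-fold lower. Igf1 was at 223 and 227 CPM against 249 and 273 CPM, and both intervals of its ratio hold 1 (0.707 to 1.12 and 0.552 to 1.21). Igfbp5 differed between the libraries here, at 216 against 221 CPM in Heart1 but 24.3 CPM (3 UMIs) against 206 CPM in Heart2. Only 3 and 1 of the Thbs4 cells held Thbs4 alone, and the rest also held Wif1 or Pi16. Against fibroblasts with none of the 3 genes, Igfbp6 with Thbs4 alone was at 4.29-fold in Heart1 (3.35 to 5.51). In the 1 such cell of Heart2 it was at 0.704-fold (3 UMIs, 0.145 to 2.07). Igfbp7 was at 1.28-fold and 3.68-fold there, and Igfbp4 at 0.527-fold in Heart1 and 0 UMIs in Heart2. Thbs4 cells were deeper, with a median of 16060 UMIs in Heart1 against 11802 without Thbs4, and the part of depth was not tested.

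**Figure D3:**
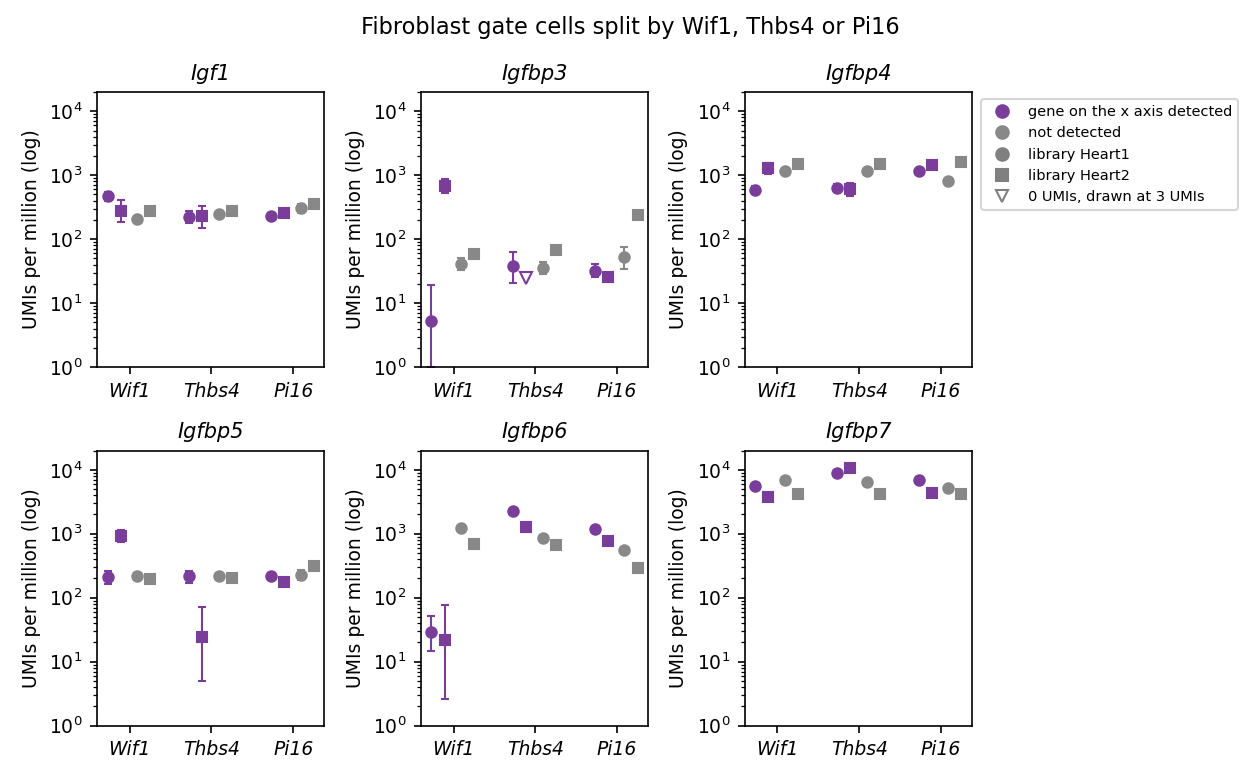
Level of each gene in CPM (log axis) in fibroblasts with and without detected Wif1, Thbs4 or Pi16 (x axis), by library; bars are exact Poisson 95% intervals (counting error only), and the open triangle marks 0 UMIs, drawn at 3 UMIs. Igfbp6 in Wif1 cells lies at 29.1 and 21.5, below every other Igfbp6 point.

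With Wif1, values of the other genes are given by library. Igf1 stood at 468 CPM in Heart1 Wif1 cells against 209 CPM without, 2.24-fold higher (1.87 to 2.66), but at 280 against 272 CPM in Heart2 (1.03-fold, 0.670 to 1.51). Igfbp4 was at 585 against 1171 CPM in Heart1 and 1280 against 1486 CPM in Heart2. Igfbp3 was at 5.29 against 41.2 CPM in Heart1 (ratio 0.128, 0.0153 to 0.477), whereas its 688 CPM in the Wif1 cells of Heart2 came from 64 UMIs in 1 cell. Igfbp5 was at 209 against 222 CPM in Heart1 but at 914 against 195 CPM in Heart2, 4.68-fold higher (3.72 to 5.82). Igfbp7 was 0.812 and 0.895 times the level without Wif1. Igfbp6 was thus the member that was low with Wif1 in both libraries by more than 2-fold.

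For Pi16, fibroblasts with Pi16 alone (134 and 741 cells) were compared with those with none of the 3 genes (21 and 181 cells). Igfbp6 stood at 1102 and 757 CPM with Pi16 and at 450 and 304 CPM without. It was 2.45-fold and 2.49-fold higher, a log2 difference of 1.29 ± 0.11 (limma adjusted p = 0.00104). Of the 6 genes it was the 1 called higher and 0 were called lower; of all 8672 genes 0.3% were called higher and 0.196% lower (26 and 17 genes), with 675 at an unadjusted p under 0.05. The call is lost without the library block (limma adjusted p = 0.998) and against all other fibroblasts, where the difference was 0.60 (adjusted p = 0.450).

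The other 5 genes did not pass the test for Pi16. Igf1 was at 197 and 254 CPM with Pi16 against 268 and 353 CPM without (log2 difference -0.45 ± 0.14, limma adjusted p = 0.329). With Pi16 read at full depth, where no test could be made, the Igf1 difference was 0.70, the other direction. Igfbp3 was at 41.3 against 44.6 CPM in Heart1 and 25.9 against 205 CPM in Heart2, so its log2 difference of -1.43 ± 0.47 (limma adjusted p = 0.389) rests on Heart2. Igfbp5 was at 226 against 203 CPM in Heart1 and 168 against 325 CPM in Heart2. Igfbp4 differed by 0.04 ± 0.11 and Igfbp7 by 0.21 ± 0.09 on the log2 scale. With another random draw of the thinning, Igf1, Igfbp3 and Igfbp5 were called lower (limma adjusted p = 0.0210, 2.82e-20 and 0.00554). Igfbp3 was also called lower in 3 alternative fits on the first draw, and thus in 4 of 13 alternative fits in all. Of the other 27 genes of the list that were tested, 0 were called in either direction.

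Across single fibroblasts the 6 genes moved together only weakly. Over the 15 pairs, Spearman correlations in cells thinned to 3000 UMIs lay between -0.20 and 0.25 in Heart1 (205 cells) and between -0.14 and 0.24 in Heart2 (939 cells). Igf1 and Igfbp4 had 0.15 and 0.24. Igfbp6 and Igfbp7 had 0.25 in Heart1 and -0.08 in Heart2, and Igfbp5 and Igfbp6 had -0.20 and -0.03. Cells of a library share its preparation, and correlations of sparse counts are pulled toward 0, so these values are a description.

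**Figure D4:**
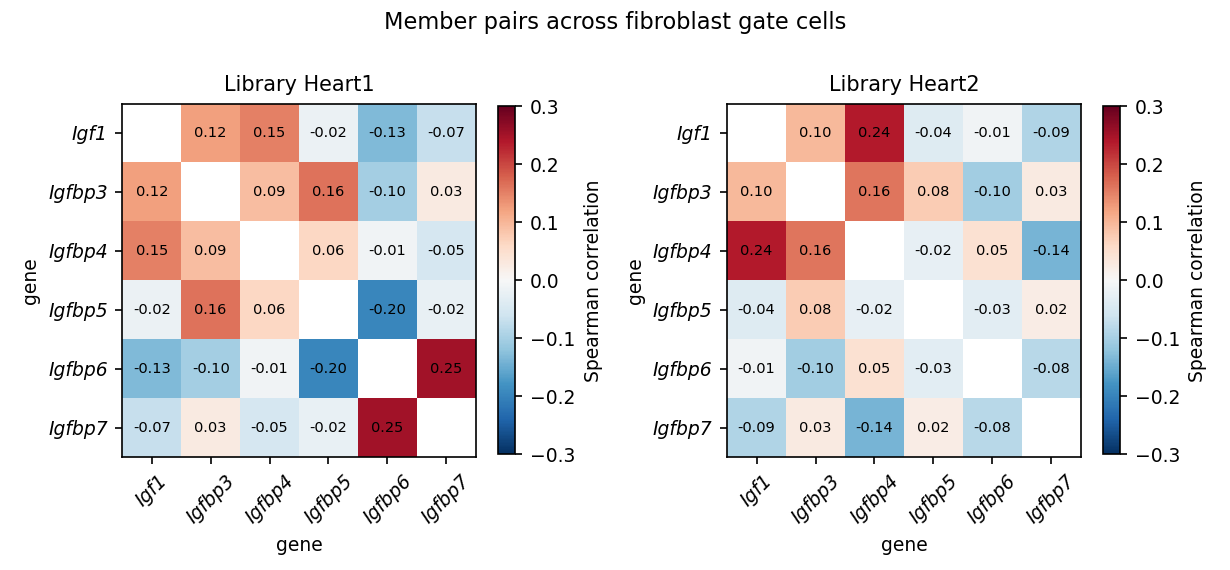
Spearman correlation of each pair of genes across fibroblasts thinned to 3000 UMIs, in each library (colour scale from -0.3 to 0.3, values printed). The highest are 0.25 for Igfbp6 with Igfbp7 in Heart1, which is -0.08 in Heart2, and 0.24 for Igf1 with Igfbp4 in Heart2.

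Correlations with genes outside the family are given as a description, since these genes were picked by the same values. Among 3732 genes detected in at least 10% of fibroblasts of each library, the 3 most like each member were taken by the lower of its correlations in the libraries. Igfbp6 was most like Mfap5, a microfibril gene (0.59 and 0.37), Pi16 (0.44 and 0.35) and Ly6a, which encodes the surface protein Sca-1 (0.29 and 0.31). It was least like Apoe, the apolipoprotein E gene (-0.53 and -0.32). Igfbp7 was most like Bgn, which encodes the matrix proteoglycan biglycan (0.45 and 0.53), Sparc (0.35 and 0.34) and Col8a1 (0.31 and 0.32). Igfbp4 was most like Rbp4, a retinol carrier gene (0.25 and 0.22), Penk (0.33 and 0.20) and Myoc (0.29 and 0.20).

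For the remaining genes the nearest values were lower. Igf1 was most like Fbln1 (0.18 and 0.21), Ccdc80 (0.28 and 0.18) and the complement gene C4b (0.16 and 0.16). Igfbp3 was most like Apoe (0.19 and 0.25), Pdlim3 (0.16 and 0.17) and Vit (0.28 and 0.15), and least like Pi16 (-0.17 and -0.22). Igfbp5 was most like Dkk3 (0.21 and 0.17), Fhl1 (0.20 and 0.12) and Crip1 (0.16 and 0.11). Igfbp6 and Igfbp3 thus stood at opposite ends for both Pi16 and Apoe. The named genes were not all stable. In fibroblasts with none of Wif1, Thbs4 and Pi16 (21 and 181 cells), Igf1 with Ccdc80 had 0.46 and -0.02. Igfbp3 with Apoe had -0.01 and 0.33 there, and Igfbp6 with Mfap5 0.37 and 0.16. Igfbp5, by contrast, had higher values there with Dkk3, Fhl1 and Crip1 in both libraries.

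Macrophages were split by Folr2, a folate receptor gene that marks resident-type macrophages, detected in 18 of 37 and 133 of 208 cells after thinning. Of the other 4 resident-type markers, Lyve1 was at 558 and 882 CPM with Folr2 against 35.5 and 44.9 CPM without, and Timd4 and F13a1 were likewise higher with Folr2 in both libraries by value. Cd163 was at 291 CPM on both sides in Heart1 and at 565 against 88.3 CPM in Heart2. Igf1 stood at 369 and 414 CPM with Folr2 against 199 and 165 CPM without, 1.85-fold (1.19 to 2.97) and 2.51-fold (2.03 to 3.12) higher. Igfbp4 stood at 204 and 534 CPM against 128 and 178 CPM, 1.59-fold (0.898 to 2.94) and 3.0-fold (2.46 to 3.69) higher. Both genes were thus higher with Folr2 in both libraries by value, except that the interval of Igfbp4 in Heart1 holds 1. With 18 and 19 cells in Heart1 the minimum of 20 was not met and no test was made. Folr2 cells of Heart1 were also deeper, with a median of 10261 against 6229 UMIs; the part of depth was not tested.

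**Figure D5:**
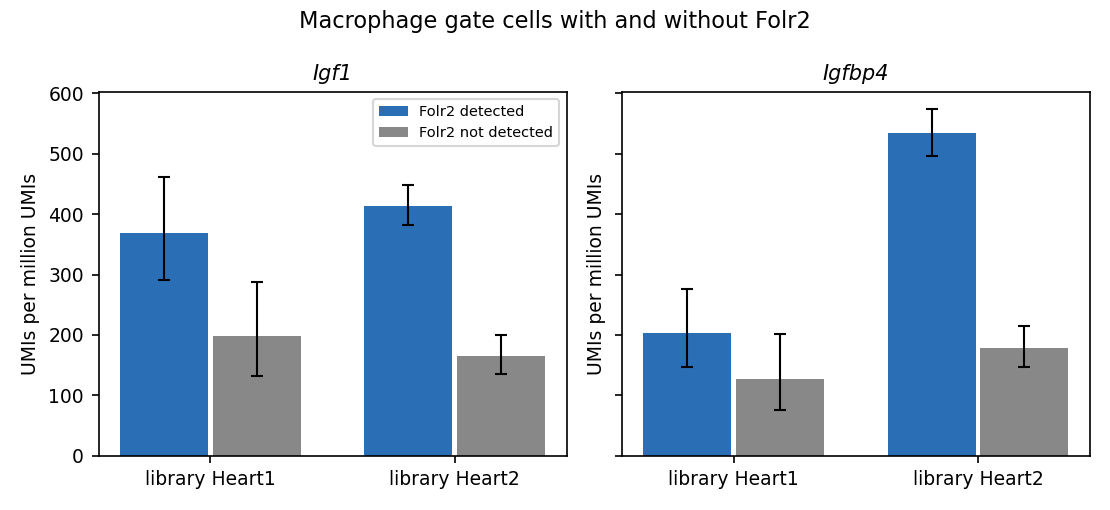
Level of Igf1 and Igfbp4 in CPM (y axis from 0) in macrophages with and without detected Folr2, by library; bars are summed levels and error bars exact Poisson 95% intervals (counting error only). Igf1 stands at 369 and 414 with Folr2 and at 199 and 165 without.

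Across single macrophages the correlation of Igf1 with Igfbp4 was -0.09 in the 37 cells of Heart1 and 0.21 in the 208 cells of Heart2. That of Igfbp4 with Folr2 was 0.21 in Heart1 and 0.38 in Heart2, and that of Igf1 with Folr2 was 0.08 and 0.24. In Heart1 the correlation of Igf1 with Folr2 was thus weak, although the summed Igf1 level was 1.85-fold higher with Folr2.

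The same gene could differ between the libraries in fibroblasts. Igfbp6 and Igfbp7 were 1.59-fold and 1.58-fold higher in Heart1 than in Heart2, and Igfbp3 and Igfbp4 were 0.551 and 0.734 times the Heart2 level. Within fibroblasts with Pi16 alone the ratios were 1.46 for Igfbp6 and 1.62 for Igfbp7, so these were also higher in Heart1 there, while Igfbp3 turned round to 1.59 and Igfbp4 was at 0.882. Igf1 and Igfbp5 were at 0.902 and 1.08 over all fibroblasts. With 1 library on each side there is no test of these differences.

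A split by Cdkn2a, the p16 gene itself, was added after seeing the data and gave too few cells for a test. In Heart1, 34 of 205 fibroblasts had it after thinning. Igfbp6 stood at 641 CPM in them against 1150 CPM without, a ratio of 0.557 (0.490 to 0.632), and Igfbp7 at 5304 against 6963 CPM. Igf1 was at 272 against 241 CPM, with an interval of the ratio that holds 1 (0.916 to 1.38). Igfbp5 was at 35.5 CPM against 254 CPM, on 15 UMIs in 5 of 34 cells. Heart2 had 3 such fibroblasts, so its values rest on very few cells. Igfbp7 stood at 8746 against 4231 CPM there (ratio 2.07, 1.84 to 2.32), opposite to Heart1. Igfbp4 and Igfbp3 had ratios of 0.784 and 0.480 in Heart1 but 3.50 and 28.1 in Heart2. Igfbp6 had 0 UMIs and Igfbp5 had 2 UMIs in those 3 cells, by value lower as in Heart1. The ratio of Igf1 was 0.555, with an interval that holds 1 (0.180 to 1.30). In Heart2 macrophages, with 32 cells with and 176 without Cdkn2a, Igf1 was at 389 against 327 CPM and Igfbp4 at 416 against 429 CPM. In Heart1 macrophages, with 9 and 28 cells, Igf1 was at 325 against 290 CPM and Igfbp4 at 283 against 131 CPM, a ratio of 2.16 (1.25 to 3.71).

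Cells in neither gate were few, 24 and 13. Of these, 6 and 9 had at least 3 of 6 endothelial genes. Of the 24 and 13 cells, 8 and 2 were predicted doublets, and 23 and 10 held fewer than 4 genes of each gate panel. The 6 cells of Heart1 were deep, with a median of 14515.5 UMIs against 6852 over the 24. The part of RNA from other cell types in their levels was not tested. In the cells with endothelial genes Igfbp7 was at 406 and 901 CPM, in 5 of 6 and 7 of 9 cells. Igfbp4 was at 88.2 and 667 CPM. Igfbp5 was at 52.9 CPM (6 UMIs) in Heart1 and 3172 CPM in Heart2, where it was seen in 4 of 9 cells. Igfbp7 was thus the gene seen in most of these cells in both libraries, below its fibroblast level.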

How the data were processed

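The 10x 3′ libraries were processed by the authors with Cell Ranger 3.0.2 on mm10, per the submitters' processing notes. The deposited values are natural log (ln) values of 1 plus UMIs per 10000; no source used here names their later steps. Whole UMI counts were recovered from them (all 4459440 values above 0 whole within 1e-06; 0 columns left out). Libraries were told apart by cell name prefix; they shared 0 barcodes, and which sample record each is was not given. Predicted doublets (scanpy 1.11.5, scrublet) were kept. UMIs were summed per library and side and tested with limma 3.58.1 (R 4.3.3) on log2(CPM + 5), library as block, mean-variance trend, Benjamini-Hochberg over genes whose mean reached 10 CPM, threshold 0.05; this scale understates low genes. At least 20 cells per side and library were required. Intervals (95%; exact Poisson, Clopper-Pearson) cover counting error only. Sequences are RefSeq's; 6 of 6 genes matched. The scripts were tested on simulated data. Named were the 6 genes, up to 6 further list genes, those furthest apart among genes 2-fold or more apart in both libraries, and the 3 most correlated genes of each member. Members and lists were chosen with earlier results of these data known. Gates, pseudocount, filter, scaling, thinning and reference cells were varied.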

Additional observations from a re-analysis of the deposited data

How the results depend on the processing

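For fibroblasts against macrophages, the 5 binding protein genes kept their call and Igf1 stayed without one in all 9 alternative fits, and the counts of calls moved by less than 1.5 times. Highest adjusted p-values (limma) were 0.00141 for Igfbp3 and 0.00824 for Igfbp4; for Igf1 they ranged from 0.145 to 0.516.

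The comparison for Pi16 was less stable. Against 26 genes called higher and 17 lower, a pseudocount of 20 CPM gave 55 and 42, no filter on low values 131 and 118, equal weight per cell 129 and 90, a stricter gate 55 and 35, a minimum of 2 UMIs for detection 56 and 48, another random draw of the thinning 213 and 151, all other fibroblasts as reference 13 and 58, and Pi16 detected against not, added after seeing the data, 43 and 47. Without the library block limma called 0 and 0, with 217 genes at an unadjusted p under 0.05. Of IGF system genes, 0 were called higher without the block or against all other fibroblasts, in place of 1. In place of 0, 2 were called lower without the filter, 2 with equal weight per cell, 1 with the 2-UMI minimum and 4 with the other draw; the cause was not tested. Igfbp6 passed in 11 of 13 alternative fits, with differences from 0.60 to 1.95. Where Pi16 was read at full depth, too few cells without it were left for a test, and Igf1 was at 0.70 in place of -0.45.

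With 1 library left out no test remains, and the value is that of the other library. Thinning moved 9 of 24 levels and 14 of 24 shares outside their counting interval, and leaving out the top cell moved 7 of 24 levels. Of the correlations across fibroblasts under other settings, 47 moved beyond the spread between the libraries and 52 did not. Few UMIs or cells stand behind Igfbp3 in macrophages and behind the Wif1 and Thbs4 groups of Heart2.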
